A study of Glycine max with 6 samples.

Results

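Dihydroflavonol 4-reductase (DFR) and anthocyanidin synthase (ANS) catalyze the late steps that turn colorless flavonoids into anthocyanidins, and 3 probe sets of the Soybean GeneChip carry DFR1, DFR2 or ANS2 as their only gene symbol. They were taken by symbol from the annotation of the array, 3 of 37641 soybean probe sets, each being the only one with its symbol alone. Soybean probe sets with no symbol (28594) or several (370) could not be found by this rule. Probe set Gma.5313.1.S1_at represented DFR1, GmaAffx.80720.1.S1_at represented DFR2, and Gma.1163.1.S1_at represented ANS2. The last of these is called ANS2/ANS3 here, as the study did, and which of these copies it reads is uncertain. DFR2 and ANS2/ANS3 had also been named by the study from its own selection on fold change in these plants, so that their direction here is a description and not independent evidence.

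Seed coats (testa) were compared between the black (iRT) soybean variety Clark and its nearly isogenic brown (irT) line, with 3 plants of each and 1 array for each plant. Both lines carry the i allele, which allows pigment over the whole seed coat, and the T allele, which provides flavonoid 3'-hydroxylation. They differ at the R locus, with R in the black and r in the brown line. No plant was treated. The seed coats were at the transition stage, with a fresh seed weight of 300 to 400 mg. Each genotype was 1 inbred line, so that the R locus and any other segment in which the nearly isogenic lines differ cannot be told apart.

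DFR enzymes reduce dihydroflavonols to leucoanthocyanidins, and ANS oxidizes these to the colored anthocyanidins, which glycosyltransferases then stabilize as anthocyanins. Intermediates can leave the route on the way. Flavonol synthase (FLS) draws on dihydroflavonols, leucoanthocyanidin reductase (LAR) on leucoanthocyanidins, and anthocyanidin reductase (ANR) on anthocyanidins, the last 2 of these branches leading to proanthocyanidins. Soybean holds several copies of most of these enzymes. In RefSeq (assembly Glycine_max_v4.0) DFR1 lies on chromosome 14 with the synonym W3 and DFR2 on chromosome 17 with the synonym W4, both names of flower color loci. There ANS2 lies on chromosome 1, with ANS3 among its synonyms.

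Beside the array, the study used separate primers for DFR1 and DFR2 in RT-PCR, which are shown because they are the sequences at hand that separate the paralogs. They are written 5′ to 3′, and capitals mark the longest run that both reverse primers share, of 10 bases.
DFR1 forward: gggcctggacttcatcacta
DFR1 reverse: ACCTCCCTTCcacttctggt
DFR2 forward: cccctttcttatgccaacaa
DFR2 reverse: atgtACCTCCCTTCggcttt
The forward primers shared no run longer than 3 bases. By quantitative RT-PCR the study reported no difference in DFR1 at the stages of anthocyanin synthesis. By semi-quantitative RT-PCR it reported DFR2 higher in black. The primer table of the study, as read here, listed none under ANS2 or ANS3. The study did measure ANS2/ANS3 by RT-PCR all the same, and reported it higher in black at most stages of seed development. The probe sequences of the array were not used here.

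Signals are values on the log2 scale from robust multi-array averaging (RMA). The array also holds 23394 probe sets for soybean pathogens, and their 95th percentile on each array, between 3.54 and 3.78, served as the background level. Array medians of the soybean probe sets lay between 5.76 and 5.91, and pairs of arrays correlated at 0.983 to 0.996. The seed coat genes Ep (a peroxidase), SCB1 and HPS (a hydrophobic seed surface protein) were above background in all 6 plants, with signals between 10.9 and 14.2. Of 44 probe sets for storage proteins, maturation proteins (PM and LEA) and Kunitz inhibitors of the embryo, 30 were above background in every plant and 1 in none. The mean signal over these embryo probe sets was 6.39 to 8.88 in the black and 5.98 to 7.27 in the brown plants, and none rose or fell (smallest adjusted p = 0.571 in limma, with 1 at an unadjusted p under 0.05). Their median log2 fold change was nonetheless 1.21 toward black, beside -0.02 over all soybean probe sets, and the plants of the 2 genotypes overlapped in the mean signal. Their part in the results below was not tested. The arrays measured whole seed coats, so fewer cells expressing a gene and less RNA per cell cannot be told apart.

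DFR2 was above background in every black seed coat and in no brown one. In black plants 1, 2 and 3 the DFR2 signal was 8.997, 8.72 and 8.85. In brown plants 1, 2 and 3 it was 3.03, 2.94 and 2.69, all below the background level of their arrays, which was 3.54 to 3.64. The groups were thus separated by a gap of 5.68, many times the range of 0.28 within the black and 0.34 within the brown plants. The means were 8.85 ± 0.14 in black and 2.89 ± 0.18 in brown (SD, n = 3), and the fitted log2 difference was 5.96 with a standard error of 0.13. Because every brown plant was at background, the fold is given as a lower bound, with DFR2 at least 38.2-fold higher in black than the brown background level of 3.60. Among 37641 soybean probe sets, of which 25 (0.0664%) rose in black at an adjusted p under 0.05 in limma, DFR2 had the smallest p (adjusted p = 1.18e-05). At the study's own limits on fold (over 2 or under 0.5) and p (0.01), taken here with the unadjusted limma p, 68 probe sets (0.181%) rose and 46 (0.122%) fell, and DFR2 and ANS2/ANS3 were among the former. The order of the brown plants among themselves lies within background and was not read.

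**Figure D1:**
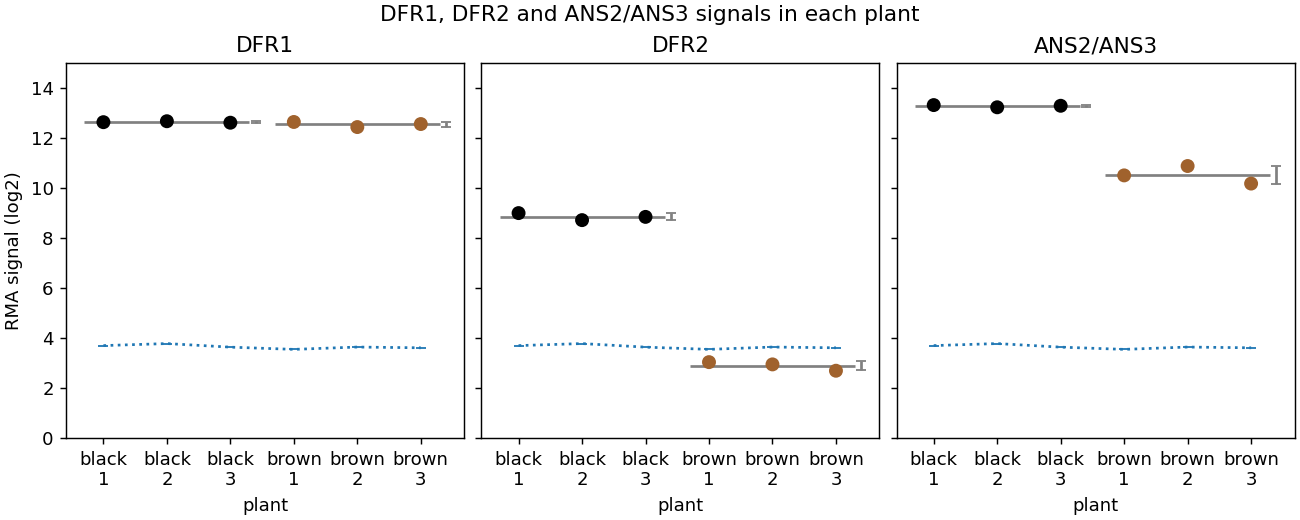
RMA signal (log2) of DFR1, DFR2 and ANS2/ANS3 in each of 3 black and 3 brown plants, with grey lines at the group means, bars of 1 SD beside them, and a dotted line at the background level of each array. DFR1 sits near 12.6 in all plants, DFR2 lies below background in the brown plants and between 8.72 and 8.997 in the black, and ANS2/ANS3 is above background in all 6 plants. Signals of different probe sets cannot be compared as amounts of RNA.

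Few probe sets were above background in 1 genotype alone. Of the soybean probe sets, 22 (0.0584%) were above background in all black and in no brown plants, and 67 (0.178%) in all brown and in no black plants. DFR2 was one of the 22, of which 5 had an adjusted p under 0.05 in limma. Against the brown background level, the lower bound of the fold was over 10 for 2 of the 22, DFR2 being one of them.

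DFR1 gave nearly the same signal in the seed coats of both genotypes. Its signals were 12.64, 12.67 and 12.61 in the black plants 1, 2 and 3. The brown plants had signals of 12.64, 12.44 and 12.56. Brown plant 1 lay within the range of the black plants, so that the groups overlapped, and brown plant 2 was the lowest of the 6 plants. The means were 12.6 ± 0.03 in black and 12.5 ± 0.10 in brown. The log2 fold change was 0.09 with a 95% interval from -0.12 to 0.31, which corresponds to black over brown ratios between 0.919 and 1.24. DFR1 did not pass the test (adjusted p = 0.810 in limma), as 37600 of the soybean probe sets (99.9%) did not, and the interval leaves out any difference as large as 2-fold. The study had matched the seed coats for developmental stage partly by equal DFR1 transcript levels. The near equality of DFR1 here was thus favored by the sampling and is not an independent result.

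ANS2/ANS3, for the enzyme after DFR, was above background in both genotypes and higher in black. For ANS2/ANS3, black plants 1, 2 and 3 measured 13.32, 13.23 and 13.29. The brown plants measured 10.51, 10.88 and 10.18. The lowest black plant lay 2.35 above the highest brown plant, so the groups did not overlap. All black plants lay above all brown plants in 2159 soybean probe sets (5.74%) and below them in 3123 (8.30%). The means were 13.3 ± 0.05 in black and 10.5 ± 0.35 in brown. The log2 fold change was 2.76 with a standard error of 0.17 (adjusted p = 0.00261 in limma), that is 6.77-fold with a 95% interval from 5.12 to 8.96. By its p, ANS2/ANS3 was number 10 of the soybean probe sets.

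The 3 probe sets varied little within the black genotype. The range over the black plants was 0.06 for DFR1, 0.28 for DFR2 and 0.09 for ANS2/ANS3. Within the brown genotype ANS2/ANS3 spread most, over a range of 0.70, against 0.20 for DFR1. Its brown plants, from high to low, were plants 2, 1 and 3. The mean deviation of the 44 embryo probe sets had the same order in these plants, with 0.14, -0.51 and -1.15. In the black plants that deviation spread from -0.74 to 1.75 while ANS2/ANS3 varied by 0.09. Whether the embryo transcripts have a part in the brown spread was not tested.

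Because both DFR copies were read on the same array, their difference within each plant removes what an array had in common for both probe sets. Equal DFR1 levels were part of the study's matching, so differences from DFR1 largely restate the changes of DFR2 and of ANS2/ANS3. In black plants 1, 2 and 3, DFR2 minus DFR1 was -3.64, -3.96 and -3.77. In brown plants 1, 2 and 3 it was -9.61, -9.50 and -9.87. The groups did not overlap. The mean was -3.79 ± 0.16 in black and -9.66 ± 0.19 in brown, a change of 5.87 on the log2 scale. With the brown DFR2 signal set at the background level, the change was at least 5.16. The exact permutation test (two-sided) gave p = 0.1, which is the smallest that 3 plants against 3 can give, and p = 0.1 after adjustment over the 2 pairs of probe sets compared.

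ANS2/ANS3 minus DFR1 gave 0.68, 0.56 and 0.68 in black, and -2.14, -1.56 and -2.38 in brown plants. The mean was 0.64 ± 0.07 in black and -2.03 ± 0.42 in brown. This change of 2.67 also separated the genotypes without overlap (exact permutation test, two-sided, p = 0.1, the smallest possible). Both changes were larger than the spread between plants, in a design that cannot reach p under 0.05 by permutation.

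**Figure D2:**
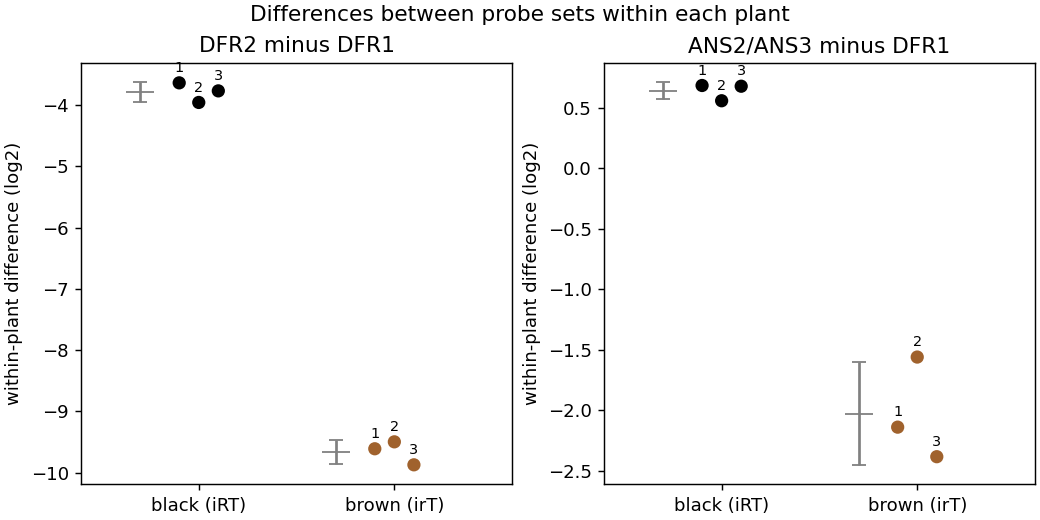
Within-plant differences (log2) of DFR2 minus DFR1 and of ANS2/ANS3 minus DFR1, with a numbered point for each plant, and the group mean with a bar of 1 SD to the left. Black and brown plants do not overlap in either panel, with means of -3.79 and -9.66 for DFR2 minus DFR1 and of 0.64 and -2.03 for ANS2/ANS3 minus DFR1. The vertical axes differ between the panels and do not start at 0.

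The steps around DFR and ANS were followed through 48 other probe sets with 1 gene symbol of the flavonoid pathway, from phenylalanine ammonia-lyase (PAL) to the glycosyltransferase UGT78K1. Of these, 3 rose and 3 fell in black at an adjusted p under 0.05 in limma, which is 12.5% of the list where 0.109% of all soybean probe sets did (0.0664% rose and 0.0425% fell). Their median log2 fold change was 0.08, beside -0.02 over all soybean probe sets, and 42 of the 48 changed by less than 1 on the log2 scale. The groups did not overlap in 16 of them, or 33.3%, beside 14.0% of all soybean probe sets, and 12 had an unadjusted p under 0.05, as 8.32% of all did. Of the 48, 29 were above background in all plants of at least 1 genotype, and all 6 that passed were among these.

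Among the listed genes that open the pathway, 1 probe set rose. PAL2.1 and C4H (cinnamate 4-hydroxylase) had no probe set that passed, with log2 fold changes between -0.16 and 0.19 over 5 probe sets. Of 7 probe sets for 4-coumarate-CoA ligases, which activate the acids for chalcone synthesis, the one annotated as 4CL4 rose. The study called it 4CL2, a symbol that the annotation gives to 2 other probe sets, neither of which passed. It measured 6.92, 7.26 and 6.85 in black and 5.93, 5.68 and 5.88 in brown plants (log2 fold change 1.18, adjusted p = 0.0460 in limma). The groups did not overlap, but the call of 4CL4 was lost without any 1 of the 6 plants, with adjusted p between 0.0696 and 0.213.

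Chalcone synthase (CHS), which makes the first flavonoid skeleton, held the other rises. The 2 probe sets of the target GmaAffx.42116.1, annotated as CHS1, were at background in every brown plant, as DFR2 was. In black they were higher by at least 5.18-fold and at least 4.21-fold, with adjusted p of 0.00361 and 0.00960 in limma. The study named this target CHS4/CHS5, and in its RT-PCR with separate primers CHS4 was higher in black but CHS5 was not. These probe sets share a target and are not separate evidence. The call of the second was lost without black plant 1 and without any brown plant (adjusted p of 0.0598 to 0.0758). Of the others with the symbol CHS1, one had a log2 change of -5.15, with an adjusted p of 7.50e-05 in limma. Its black signals of 4.05, 3.58 and 4.09 lay near background, with black plant 2 under it, so the size of this fall is uncertain. One that the study named CHS9, at background in every black plant, was lower there by at least 13.98-fold, with an adjusted p of 2.17e-05. CHS copies are nearly identical in sequence, so which copy a probe set reads is uncertain from the array alone.

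Of the listed probe sets for CHI and F3H, between CHS and DFR, and for the branch enzymes CHR and FLS, none passed. Every probe set of CHI1B1 and CHI3A1 was at background in all 6 plants, so that their not passing says nothing about a change. The chalcone isomerase CHI2-A, which closes the flavanone ring, measured 12.33, 12.26 and 12.27 in black and 11.69, 11.52 and 11.72 in brown plants. These did not overlap, with a log2 fold change of 0.64 and an adjusted p of 0.0941 in limma. For flavanone 3-hydroxylase (F3H), the enzyme that makes the substrate of DFR, one probe set had 13.08, 12.98 and 13.12 in black and 12.70, 12.75 and 12.48 in brown plants (log2 fold change 0.42, adjusted p = 0.415), again without overlap. The other F3H probe set overlapped between genotypes, with a log2 fold change of 0.17. The 95% interval of neither F3H probe set reached a log2 difference of 1. Of the isoflavonoid branch, the chalcone reductases CHR1, CHR3, CHR4 and CHR5 did not pass over 5 probe sets. CHR3 was at background in every plant, and CHR1 was above it in black plant 1 only. CHR5 measured 6.77 in black plant 1, against 3.65 to 4.12 in the other plants. The list went by symbol and so left out probe sets that the study assigned to this stretch and that carry none. These were added after their values were seen. That for flavonoid 3'-hydroxylase measured 8.07, 8.29 and 8.08 in black and 9.47, 10.0 and 8.94 in brown plants, without overlap, and did not pass (log2 fold change -1.32, adjusted p = 0.229 in limma). That for an F3H-like protein was above background in black plants 1 and 3 only, at 6.37 and 6.76, and did not pass (adjusted p = 0.534).

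At the branches around DFR and ANS and at the glycosyltransferase step, LAR1 fell and the other listed probe sets did not pass. LAR1 measured 7.86, 7.90 and 7.92 in black plants against 9.07, 9.05 and 9.08 in brown plants. Its log2 fold change was -1.18 with a standard error of 0.08 (adjusted p = 0.00361 in limma), and the groups were apart by far more than their ranges. Without brown plant 1 or without brown plant 3 its adjusted p rose to 0.0519 and to just over 0.05, and the call was lost. ANR1 was near background, with signals of 3.50 to 3.65 in black and 3.51 to 3.80 in brown plants, and only 1 of the 6 plants above the background level. Both probe sets of FLS1 and the one annotated as UGT78K1, a flavonoid glycosyltransferase, were at background in all 6 plants, so no fold is given for them. The study read UGT78K1 from another probe set, without a symbol, which was looked at after its values were seen. It was above background in every plant, at 6.88, 6.23 and 7.05 in black and 5.22, 5.13 and 5.35 in brown plants. These did not overlap, with a log2 fold change of 1.49 and a 95% interval from 0.997 to 1.98, but it did not pass (adjusted p = 0.0865 in limma). The study also found another glycosyltransferase, UGT78K2, higher in black. Its probe set was not in the list and was not looked at here.

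**Figure D3:**
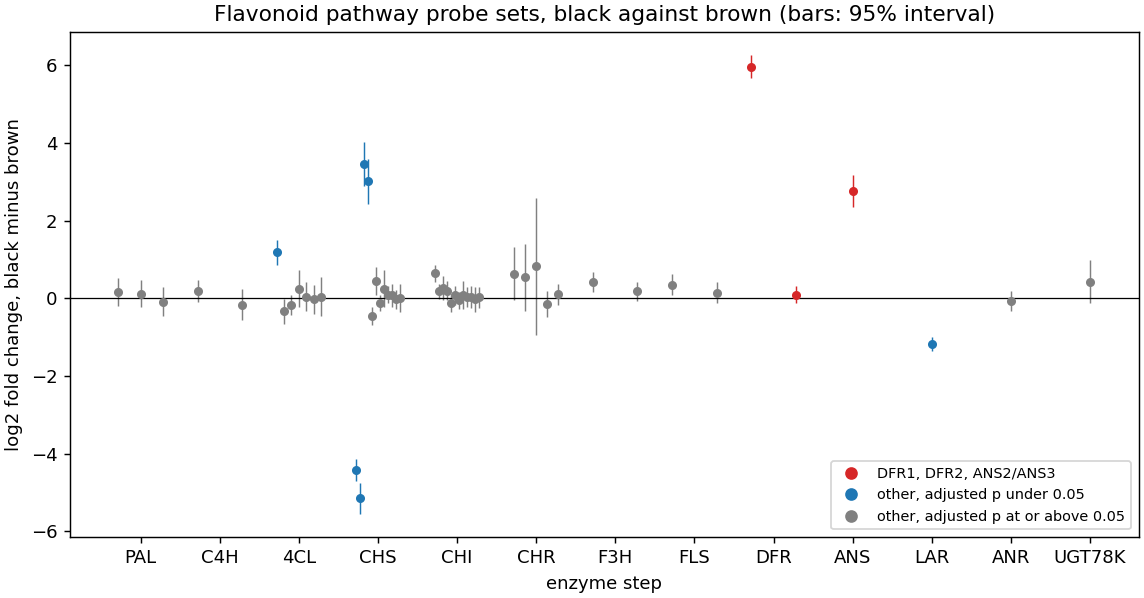
Log2 fold change (black minus brown) of 51 flavonoid pathway probe sets by enzyme step, each point a probe set with the 95% interval from limma, in red for DFR1, DFR2 and ANS2/ANS3 and in blue for others with an adjusted p under 0.05. The 2 DFR points lie apart, at a fitted 5.96 for DFR2, whose brown signals were at background, and at 0.09 for DFR1. The CHS step holds fitted points both above 3 and below -4, each with a genotype at or near background.

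The profiles closest to those of DFR2 and ANS2/ANS3 were sought over the 6 plants among soybean probe sets with 1 symbol. After each was centred on its own mean, closeness was the root mean square difference in log2 units, where 0 is identity. The measure is set largely by the size of the step between genotypes and is given with no test. Where brown plants were at background, the signals as measured were used. Closest to DFR2 was LOC100812502, the glutathione S-transferase GST26, with a difference of 0.99. It measured 10.56, 10.41 and 11.16 in black plants against 3.08, 2.68 and 2.75 in brown plants. Like DFR2, GST26 was at background in every brown plant and higher in black by at least 138.4-fold, with an adjusted p of 2.17e-05 in limma. No probe set without a symbol was closer. Both CHS1 probe sets of GmaAffx.42116.1 followed at 1.29 and 1.51, ANS2/ANS3 at 1.61, and LOC100789097 at 1.87. The last, an AP2/ERF transcription factor, had brown signals of 6.26, 3.23 and 5.60 with 1 plant at background, a wider spread than that of DFR2, and did not pass (adjusted p = 0.441 in limma).

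The closest profiles to that of ANS2/ANS3 were nearer than those of DFR2. The same CHS1 probe sets stood at 0.43 and 0.50. LOC100527223, similar to a domain of unknown function and lying on chromosome 9 in the RefSeq assembly, was there with 2 of its 3 probe sets, at 0.44 and 0.60. LOC100787440, a xyloglucan endotransglycosylase of cell wall remodelling, stood at 0.68. Of probe sets with no symbol or several, 7 were closer to ANS2/ANS3 than the first of these. All 5 had an adjusted p under 0.05 in limma, which largely follows from choosing them by closeness to a called profile and is no added evidence.

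**Figure D4:**
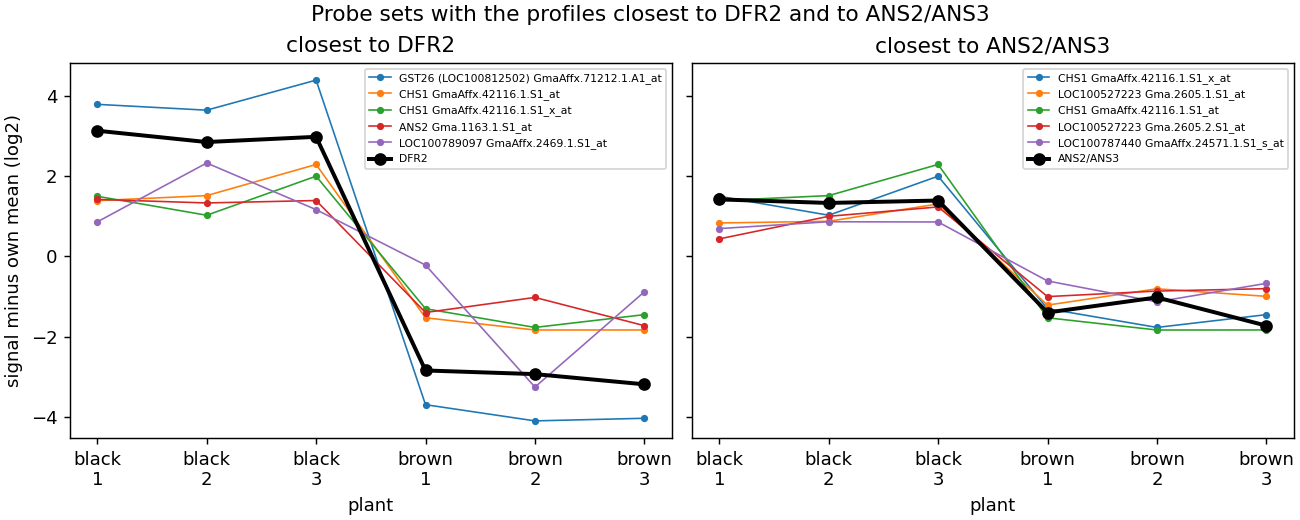
Signal minus its own mean over the 6 plants (log2) for DFR2 and its 5 closest probe sets with a symbol, and for ANS2/ANS3 and its 5 closest, in black and brown plants. The thick black line is DFR2 or ANS2/ANS3. DFR2, GST26 and both CHS1 probe sets were at background in every brown plant. The drawn depth of their step uses signals under the background level and is larger than the lower bound given in the text. LOC100789097 varies among brown plants, from 3.23 to 6.26 in signal.

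Genes next to the members on the chromosome were also looked up, a choice made after the values of the members were seen. Of the 10 protein-coding genes on each side in the RefSeq order, 6 probe sets were found around DFR1, 2 around DFR2 and 2 around ANS2, and none rose or fell in limma, with 3 of these 10 at an unadjusted p under 0.05, beside 8.32% of all soybean probe sets. The 2 near DFR2, LOC100499959 and LOC778146, had log2 fold changes of -0.01 and 0.24. The neighbor immediately after ANS2, LOC100785186, had lower signals in black, with 3.99, 3.71 and 3.98 against 4.89, 4.87 and 4.61 in brown plants. These did not overlap, but the probe set did not pass (log2 fold change -0.90, adjusted p = 0.0791), and it was opposite in sign to ANS2/ANS3.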

How the data were processed

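RNA (100 ng from each plant) was labelled by in vitro transcription for 16 h and hybridized to the Affymetrix Soybean GeneChip, which reads the 3' part of transcripts. The authors deposited log2 signals, which they had made in FlexArray by RMA (background adjustment, quantile normalization over all arrays, summary of probes). Quantile normalization gives all arrays one distribution, so a shift shared by all genes would be removed. Further deposited tables, with the authors' means, fold changes, SAM scores and p-values of selected probe sets, were not used. For each probe set the genotypes were tested by limma (version 3.58.1, under R 4.3.3) with lmFit and eBayes (two-sided, Benjamini-Hochberg over 37641 soybean probe sets) in place of SAM, and the test was checked on simulated data. Plots came from matplotlib 3.10.9 with numpy 2.4.6, under Python 3.11.15. Risen or fallen means an adjusted p under 0.05. Where a whole group lay under the background level, folds were computed against that level on each array. The number of arrays limits the precision.

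Probe sets were named by symbol (8677 have 1, 370 several, 28594 none). Named were the members, the pathway list's called probe sets, those with the smallest p at a step, and the 5 closest profiles to each called member. Members and lists were chosen with earlier results of these data known. Alternatives were median centring, cyclic loess, trend and robust limma, all probe sets, a filter on dim ones, the study's thresholds, a 99th percentile background, the replicate number as a block, and each plant left out.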

Additional observations from a re-analysis of the deposited data

How the results depend on the processing

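DFR2 and ANS2/ANS3 rose and DFR1 did not pass under every alternative tried, 13 for each. The log2 fold change was 5.87 to 6.04 for DFR2, 2.59 to 2.94 for ANS2/ANS3 and 0.04 to 0.14 for DFR1 when each plant was left out, with adjusted p up to 0.000448, up to 0.0303 and from 0.725 to 0.940 in limma. The within-plant changes ran from 5.77 to 5.96 (DFR2 minus DFR1) and from 2.49 to 2.90 (ANS2/ANS3 minus DFR1). DFR2 was at least 22.9-fold higher with the 99th percentile of pathogen probe sets as background.

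Over all soybean probe sets the 25 higher became 39 with median centring, 40 with trend and robust limma and 68 at the study's thresholds with the limma p, and the 16 lower became 46 at those thresholds. Leaving out a plant gave 9 to 20 higher and 4 to 13 lower, with 9 to 13 higher without black plant 1 or any brown plant, and 4 to 10 lower without black plant 1 or 3 or brown plant 1 or 3. Pathway probe sets that rose, members included, numbered 3 to 4 when a plant was left out (3 without black plant 1 or any brown plant) in place of 5, and those that fell 2 to 3. The cause of these moves was not tested.

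Deviations of same-numbered plants from their group means correlated at 0.09, 0.29 and 0.50, all positive. Plants of unlike number were not compared, so these values cannot decide whether the numbers pair the plants. The main fit left the plants unpaired. With the replicate block, 14 soybean probe sets rose and 9 fell, and the members kept their calls, while that of 4CL4 was lost (adjusted p = 0.204 in limma).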
